A study of Mus musculus with 14 samples.

Results

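Messenger RNA of 7 Serpinb genes (Serpinb1a, Serpinb2, Serpinb5, Serpinb6a, Serpinb6b, Serpinb8 and Serpinb9) was followed across 14 mouse hepatoblast cultures. The genes were chosen by symbol, with earlier results of these data known, and all 7 were found among the 12393 genes that the arrays measured. Counts of them called, beside the share of all genes, are therefore a description and not a test of the family. They were read by 10 of 22690 probe sets, and where a gene had several, the probe set with the highest mean over the 14 arrays stood for it. For Serpinb1a this was 1416318_at, with a mean of log2 6.11 against 4.28 for 1448301_s_at. For Serpinb5 it was 1421752_a_at, with a mean of log2 6.28 against 5.06 for 1424623_at and 4.88 for 1438856_x_at. Those means are a description, and no test is drawn from them. The mouse genome holds many more members of the family, of which 21 were listed and 7 were measured beside these.

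Hepatoblasts are fetal liver progenitors of hepatocytes and bile duct cells. These came from wild-type mouse embryos at day 14, were immortalised by growth at clonal density, and were kept with epidermal growth factor, insulin-like growth factor II and insulin. Each of 7 groups had 2 cultures. On collagen-coated plates these were cells with the empty vector, with wild-type IDH1, with IDH1 R132C, with wild-type IDH2 and with IDH2 R172K. The vector and the IDH1 R132C cells were also grown on uncoated plates. The series text describes the constructs as doxycycline-inducible, the treatment protocol gives 25 ng/mL doxycycline for the IDH1 experiments and does not say whether the IDH2 cultures received it, and uncoated culture, the hepatocyte differentiation assay, lasted at most 5 days. IDH1 and IDH2 are cytosolic and mitochondrial isocitrate dehydrogenases, and both substitutions are tumour mutations known to make the enzyme produce 2-hydroxyglutarate. The immortalised line and the uncoated plate limit how far the cultures model fetal liver.

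Serpins are protease inhibitors that offer a protease an exposed loop as bait, and, once cut, change shape and trap the enzyme. The Serpinb genes encode the clade whose members lack a classical signal peptide and act mainly inside the cell, where they shield it from granule and lysosomal proteases. Serpinb1a inhibits neutrophil elastase, cathepsin G and proteinase 3. Serpinb2 is plasminogen activator inhibitor 2, an inhibitor of urokinase, and Serpinb9 inhibits granzyme B. Serpinb6a and its paralogue Serpinb6b are related to the human cathepsin G inhibitor SERPINB6, and Serpinb8 can inhibit furin. Serpinb5, or maspin, is a family member that does not inhibit proteases, known from breast and other epithelia.

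The genes lie in clusters on mouse chromosomes 1 and 13. In the RefSeq order, Serpinb5, Serpinb2 and Serpinb8 belong to the cluster of chromosome 1, while Serpinb1a, Serpinb6b, Serpinb9 and Serpinb6a follow each other in that order in the cluster of chromosome 13, with other family members in between. RefSeq start regions on GRCm38.p6, from 250 bases before to 50 after the start, were on hand for 6 of the 7 genes, not Serpinb1a. Shown are those of Serpinb2 and Serpinb5, whose signal was lower on uncoated plates. Those of Serpinb6b and Serpinb9, whose signal was higher there, are shown beside them so that the pairs can be compared. Serpinb1a, whose signal was also higher there, is therefore missing from this comparison. Capitals mark matches to 7 motifs searched on both strands, namely TGANTCA (AP-1), TGACGTCA (CRE), TTNNGNAAT (C/EBP), GGAATG (TEAD), CAAAGTCCA (HNF4), GAAA followed after any 2 bases by another GAAA (interferon response) and the TATA box, TATAAA.
Serpinb2, chr1:107511173-107511472, plus strand: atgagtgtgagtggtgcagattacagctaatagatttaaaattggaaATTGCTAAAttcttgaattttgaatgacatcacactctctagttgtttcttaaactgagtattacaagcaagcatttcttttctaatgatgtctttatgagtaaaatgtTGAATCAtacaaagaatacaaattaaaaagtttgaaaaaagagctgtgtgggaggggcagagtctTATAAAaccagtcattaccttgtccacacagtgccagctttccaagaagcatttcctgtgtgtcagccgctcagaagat
Serpinb5, chr1:106860925-106861224, plus strand: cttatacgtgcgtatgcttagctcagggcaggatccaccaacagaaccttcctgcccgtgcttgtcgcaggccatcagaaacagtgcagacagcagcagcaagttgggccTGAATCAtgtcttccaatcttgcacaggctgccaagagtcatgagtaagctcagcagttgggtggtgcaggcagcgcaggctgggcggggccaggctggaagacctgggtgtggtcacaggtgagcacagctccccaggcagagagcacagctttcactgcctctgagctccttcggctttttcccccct
Serpinb6b, chr13:32965011-32965310, plus strand: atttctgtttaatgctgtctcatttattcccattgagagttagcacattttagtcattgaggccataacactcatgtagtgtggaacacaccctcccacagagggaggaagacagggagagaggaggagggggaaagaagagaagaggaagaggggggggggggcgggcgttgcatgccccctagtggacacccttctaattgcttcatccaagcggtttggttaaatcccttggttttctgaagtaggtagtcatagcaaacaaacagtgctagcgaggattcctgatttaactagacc
Serpinb9, chr13:33004291-33004590, plus strand: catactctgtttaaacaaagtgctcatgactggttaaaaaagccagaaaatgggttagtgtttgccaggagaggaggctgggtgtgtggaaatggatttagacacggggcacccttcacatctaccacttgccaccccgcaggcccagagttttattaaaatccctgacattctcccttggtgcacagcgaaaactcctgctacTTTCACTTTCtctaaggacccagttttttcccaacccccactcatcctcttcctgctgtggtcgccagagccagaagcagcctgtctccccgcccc
The AP-1 motif was in the windows of Serpinb2 and Serpinb5, as TGAATCA in each, and in 7.81% of 32851 windows of all genes. The first base of the match lay 94 bases before the start in Serpinb2 and 140 before it in Serpinb5. Serpinb2 also held a TATA match 29 bases before the start (13.6% of all windows) and a C/EBP match (11.5%). Serpinb9 had 1 match, to the interferon response motif (3.44%), and Serpinb6b had none of the 7. Serpinb8, which did not pass in either plate comparison, held 2 AP-1 matches, and 1 of the Serpinb6a windows also held the interferon response motif. Windows of the other starts that RefSeq gives for Serpinb2 and Serpinb6a were searched too and are not shown. A match is a run of letters and was not tied to binding here.

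Signal is given as log2 of the deposited probe set intensity. The lower quartile of the arrays lay between log2 4.72 and 4.81, and a mean at or below 4.81 is called near background. The median intensity of an array was 134.9 to 148.3, and replicates correlated at r = 0.994 to 0.998 across genes. The hepatocyte factor Hnf4a and the keratins Krt8 and Krt18 were well above background in every group (Krt8 at log2 14.18 to 14.32). In the same list of markers, albumin lay near background in 6 of 7 groups and Prox1 in all 7, and group means of Dlk1 were only log2 5.20 to 5.50. Others of that list differed between the groups, as described with the results. Of 11 leukocyte markers, Itgam, Tyrobp and Cpa3 were near background in all 7 groups, as were 5 of 7 endothelial markers. Other leukocyte markers were not: group means of Cd14 ran from log2 9.02 to 9.90. Cd68, Csf1r, Laptm5 and Cd3e lay above background in every group, Cd3e at only log2 5.20 to 5.36. Of 11 mesenchymal markers, 5 were near background in all groups, while Vim ran from log2 13.82 to 14.11. With 2 arrays per group, their number limits the precision of every value.

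Serpinb1a showed the widest range of the 7 genes. On collagen it stood at log2 4.89 and 5.52 in the vector cultures, at 4.94 and 4.76 with wild-type IDH1 and at 4.99 and 4.94 with R132C. It stood at log2 4.86 and 5.11 with wild-type IDH2 and at 4.43 and 4.54 with R172K. These levels lay close to background, and the R172K mean was under it. On uncoated plates it reached log2 10.02 and 9.76 in vector cells and 7.72 and 9.05 in R132C cells. All 4 uncoated cultures were thus higher than all 10 collagen cultures, and the uncoated R132C cultures were far apart, differing by log2 1.34.

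Serpinb9 was also higher on uncoated plates. Its signal on collagen was log2 8.71 and 9.21 with vector, 8.76 and 8.58 with wild-type IDH1, and 8.67 and 8.75 with wild-type IDH2. It was log2 7.87 and 8.13 with R132C and 7.41 and 7.76 with R172K, so the 4 mutant cultures lay below the 6 others on collagen. On uncoated plates it was log2 10.36 and 10.65 with vector and 9.44 and 10.42 with R132C, and every uncoated culture exceeded every collagen culture. The order of the group means ran from uncoated vector (log2 10.50 ± 0.21, SD, n = 2) and uncoated R132C (9.93 ± 0.69, SD, n = 2), which overlapped, to vector, wild-type IDH2 and wild-type IDH1, which also overlapped. R132C and, lowest, R172K (log2 7.59 ± 0.25, SD, n = 2) came last and did not overlap.

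Serpinb6b and Serpinb6a were far above background in all 14 cultures. Serpinb6b lay between log2 11.41 and 11.76 in the 10 collagen cultures. On uncoated plates it was log2 12.55 and 12.49 with vector and 12.79 and 12.75 with R132C, again without overlap with collagen. Serpinb6a varied least, from log2 13.10 to 13.43 over all 14 arrays, and its group means spanned 0.25.

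Serpinb2 and Serpinb5 were lower on uncoated plates. Serpinb2 on collagen was log2 8.01 and 8.37 with vector, 8.11 and 8.73 with wild-type IDH1, 7.66 and 8.18 with R132C, 8.06 and 8.81 with wild-type IDH2, and 7.82 and 8.95 with R172K. On uncoated plates it was log2 6.24 and 7.01 with vector and 5.77 and 5.97 with R132C, all below the collagen cultures. The 5 collagen groups overlapped with their neighbours in the order of means. Serpinb5 on collagen was log2 6.95 and 6.85 with vector, 6.51 and 7.41 with wild-type IDH1, 6.17 and 6.05 with R132C, 6.57 and 7.89 with wild-type IDH2, and 6.32 and 6.97 with R172K. On uncoated plates it was log2 5.02 and 5.04 with vector and 4.94 and 5.24 with R132C, close to background. The Serpinb5 replicates of wild-type IDH2 and wild-type IDH1 differed by log2 1.32 and 0.90, more than those of the other groups.

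Serpinb8 lay not far above background throughout, between log2 5.38 and 6.63. The cultures with R172K stood at log2 6.06 and 6.63, and those with R132C on collagen, at 5.89 and 6.14, overlapped with them. The lowest was a vector culture on collagen, at 5.38. Its group means formed a chain in which each overlapped with the next.

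**Figure D1:**
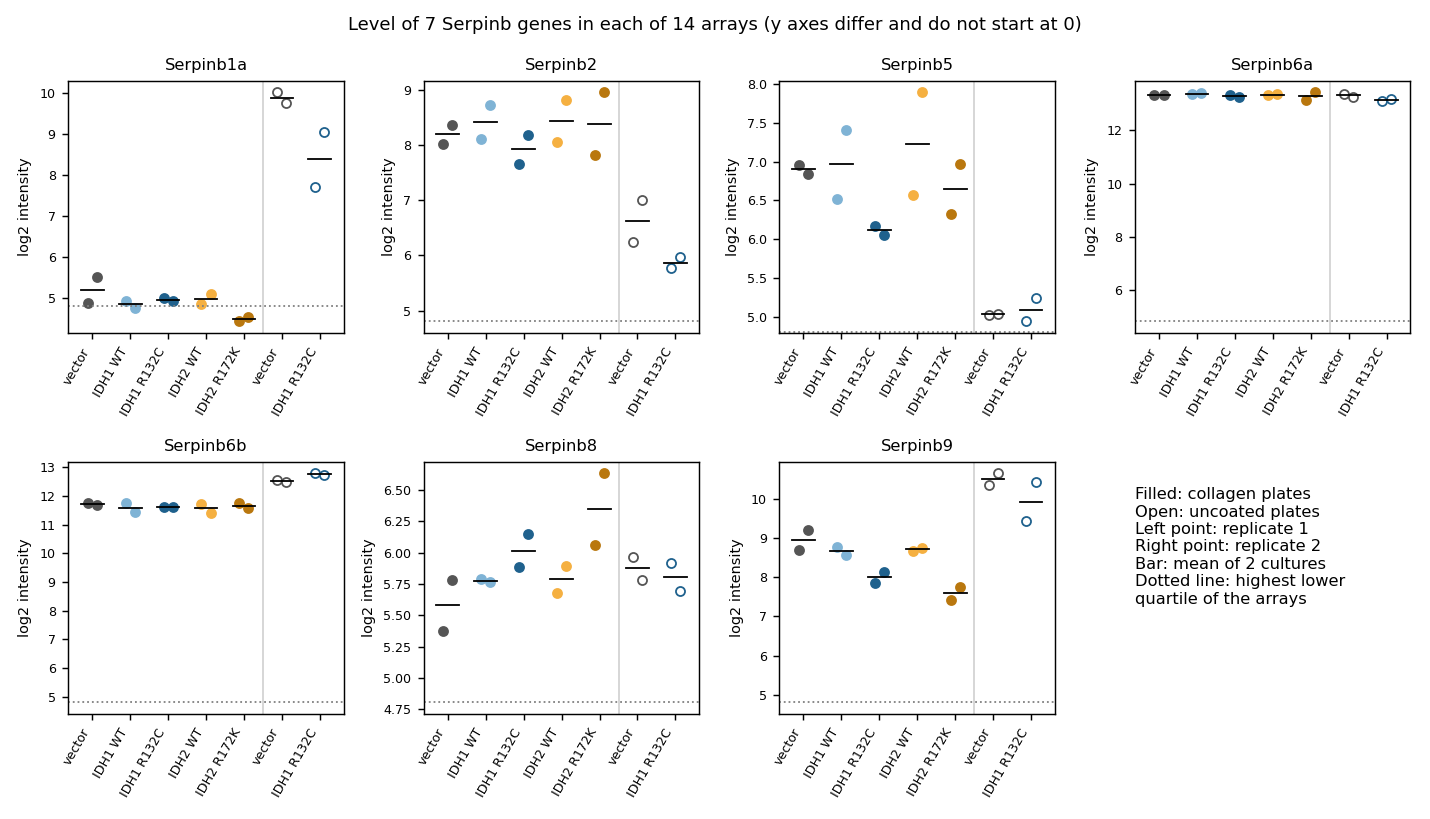
Log2 probe set intensity of the 7 Serpinb genes (y axis, separate scale in each panel) in the 7 groups (x axis). Each point is 1 culture, filled on collagen and open on uncoated plates, each bar is the mean of 2 cultures, and the dotted line at log2 4.81 is the highest lower quartile of the arrays. The 4 uncoated points lie above all collagen points for Serpinb1a, Serpinb6b and Serpinb9 and below them for Serpinb2 and Serpinb5.

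The first comparison set uncoated plates against collagen in vector cells. By limma across all 12393 genes with Benjamini-Hochberg adjustment, 3 of the 7 Serpinb genes rose and 2 fell, where 29.3% of all genes were called (15.1% higher and 14.2% lower). Serpinb1a rose 25.6-fold (log2 change 4.68 with SE 0.32, adjusted p = 1.05e-06), a fold that starts from a level close to background and is not exact. Serpinb9 rose 2.92-fold (1.55 with SE 0.26, adjusted p = 0.000615). Serpinb6b rose 1.75-fold (0.81 with SE 0.11, adjusted p = 0.000189). Serpinb5 fell 3.65-fold (-1.87 with SE 0.36, adjusted p = 0.00174) to a level close to background. Serpinb2 fell 2.96-fold (-1.57 with SE 0.37, adjusted p = 0.00608). In each of these 5 genes the uncoated cultures did not overlap with the collagen cultures. Serpinb8 and Serpinb6a changed by log2 0.29 (95% interval -0.12 to 0.71) and -0.0012 (-0.18 to 0.18) and did not pass. The call of Serpinb2 was lost without vector uncoated replicate 1 (log2 change -1.18, adjusted p = 0.0825). The median change of the 7 genes was log2 0.29, beside -0.020 over all genes.

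In R132C cells on the same change of surface, 3 genes rose and 1 fell, where 25.9% of all genes were called (13.6% higher and 12.3% lower). Serpinb1a rose 10.7-fold (log2 change 3.42 with SE 0.32, adjusted p = 3.56e-05), again from close to background. Serpinb9 rose 3.82-fold (1.93 with SE 0.26, adjusted p = 0.000220) and Serpinb6b 2.21-fold (1.15 with SE 0.11, adjusted p = 5.06e-05). Serpinb2 fell 4.13-fold (-2.04 with SE 0.37, adjusted p = 0.00147). Serpinb5 changed by log2 -1.03 (SE 0.36, adjusted p = 0.0549), just short of the threshold. It passed in 9 of 23 alternatives, among them a fit of only the arrays of the 2 groups (adjusted p = 0.00143) and the fits without either replicate of wild-type IDH1 or IDH2 (0.0131 to 0.0391). Serpinb6a changed by -0.17 (95% interval -0.34 to 0.0094) and Serpinb8 by -0.21 (-0.63 to 0.21), and neither passed. Serpinb6a did pass in 5 alternatives (adjusted p = 0.0257 to 0.0438), including arrays centred on their median (-0.21) and the fits without R172K replicate 1 or 2. The median change of the 7 genes was log2 -0.17, beside -0.028 over all genes.

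Whether R132C cells answered the plate differently was tested as a difference of the plate effects. By limma none of the 7 genes passed, where 0.25% of all genes did, and 1 of them, Serpinb1a, had an unadjusted p under 0.05. The rise of Serpinb1a was smaller in R132C cells by log2 -1.26 (95% interval -2.24 to -0.28, adjusted p = 0.624). Without R132C uncoated replicate 2, the higher of the pair, that difference was -1.93 and passed (adjusted p = 0.0187). For Serpinb5 the difference was 0.84 (-0.27 to 1.96), for Serpinb8 -0.50 (-1.09 to 0.088) and for Serpinb2 -0.48 (-1.61 to 0.65). For Serpinb9 it was 0.39 (-0.41 to 1.18), for Serpinb6b 0.34 (-0.013 to 0.69) and for Serpinb6a -0.17 (-0.41 to 0.084). These intervals are for single genes and are not adjusted for the number of genes.

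Set directly against each other on uncoated plates, R132C and vector cells differed in 1 of the 7 genes, where 2.39% of all genes were called (0.896% higher and 1.49% lower). These arrays are those of the plate comparisons, so the comparison is not a separate experiment. Serpinb1a was 2.83-fold lower in R132C cells (log2 change -1.50 with SE 0.32, adjusted p = 0.0309), with all R132C values under all vector values. The size rested on the spread of the R132C cultures: it was -0.83 without R132C uncoated replicate 1 (adjusted p = 0.227) and -2.17 without replicate 2. The call was also lost without vector uncoated replicate 1 or 2 (adjusted p = 0.302 and 0.0706) and without R132C collagen replicate 1 or 2 (0.0544 and 0.0542). Fitted on the arrays of the 2 groups alone it did not pass (adjusted p = 0.125). Serpinb2, at log2 -0.75 (SE 0.37, adjusted p = 0.426), was lower without overlap and Serpinb9, at -0.57 (SE 0.26, adjusted p = 0.360), was lower with overlap. Serpinb9 passed without R132C uncoated replicate 2 (-1.06, adjusted p = 0.0257). Serpinb6b at 0.25, Serpinb6a at -0.20, Serpinb8 at -0.067 and Serpinb5 at 0.058 did not pass.

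**Figure D2:**
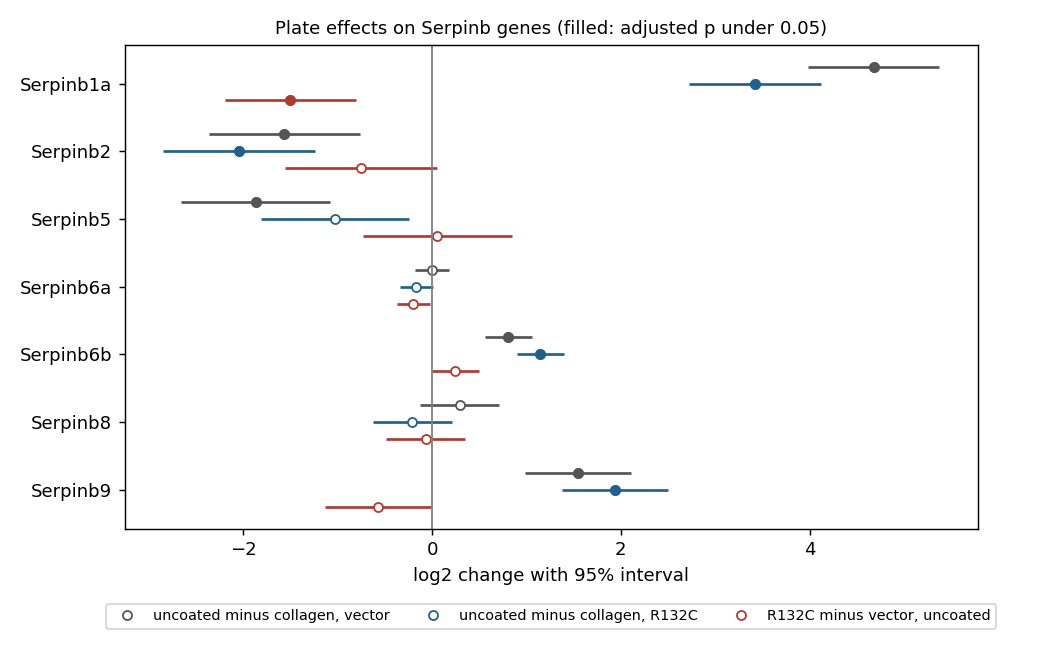
Log2 changes with 95% intervals from the limma fit (x axis) for the 7 Serpinb genes (y axis), for the uncoated plate in vector cells (grey), in R132C cells (blue) and for R132C minus vector on uncoated plates (red). Filled points have an adjusted p under 0.05. Serpinb1a lies farthest right in both plate comparisons, at 4.68 and 3.42, and is the only filled red point, at -1.50.

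The other probe sets gave a partial check. The dimmer Serpinb1a probe set 1448301_s_at stood at log2 3.49 to 3.90 on collagen, below the lower quartile of the arrays, and at 6.45 and 6.12 in vector and 4.90 and 5.53 in R132C cells on uncoated plates. Fitted over all probe sets by limma, it rose in vector cells (log2 change 2.63, adjusted p = 2.30e-06) and in R132C cells (1.51, adjusted p = 0.000229). Both changes start from below the background mark, so they give a direction and not a size. It was lower in R132C than in vector cells on uncoated plates by log2 -1.07 (adjusted p = 0.0163). For Serpinb5 the other 2 probe sets changed by log2 -1.34 and -1.17 in vector cells and by -0.88 and -0.97 in R132C cells, and none of these passed (adjusted p = 0.0555, 0.153, 0.222 and 0.247). They lay under the lower quartile on uncoated plates. The fall of Serpinb5 in vector cells was therefore called by 1 of its 3 probe sets. Probe sequences were not used here, so signal shared between near-identical family members was not tested. The closest copy of Serpinb1a with a probe set of its own, Serpinb1b, lay near background in all 7 groups.

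**Figure D3:**
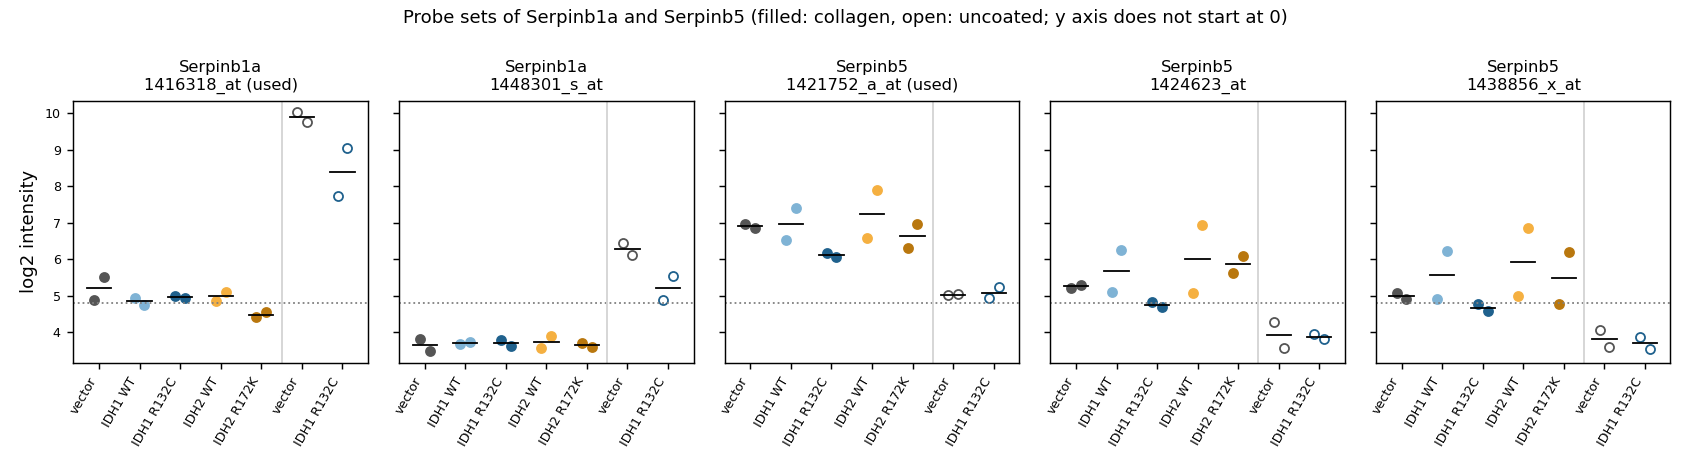
Log2 intensity (y axis, shared) of the 2 probe sets of Serpinb1a and the 3 of Serpinb5 in the 7 groups (x axis), with 1 point per culture, filled on collagen and open on uncoated plates, and bars for group means. Both Serpinb1a probe sets are highest in uncoated vector cells, and all 3 Serpinb5 probe sets are lowest on uncoated plates.

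The next comparisons asked what mutant IDH did on collagen. Against wild-type IDH2, R172K lowered 1 of the 7 genes, where 1.73% of all genes were called (0.597% higher and 1.14% lower). Serpinb9 fell 2.18-fold (log2 change -1.13 with SE 0.26, adjusted p = 0.0493 by limma), close to the threshold. The call held in 8 of 23 alternatives and was lost without either replicate of wild-type IDH1, wild-type IDH2, R132C on collagen or vector on uncoated plates and without R172K replicate 1 (adjusted p from 0.0702 to 0.282). Against wild-type IDH1, R132C changed none of the 7, where limma called 0.0484% of all genes, and 2 of the 7 had an unadjusted p under 0.05. Serpinb9 was lower there by log2 -0.67 (95% interval -1.24 to -0.11) and Serpinb5 by -0.85 (-1.64 to -0.061), in each case without overlap between replicates (adjusted p = 0.549 and 0.617). Taking the mean of both mutant effects, Serpinb9 was 1.87-fold lower (-0.90 with SE 0.18, adjusted p = 0.0196), the only call among the 7 where 3.61% of all genes were called (1.18% higher and 2.44% lower). That call held in 15 of 23 alternatives and was lost without any of 7 single arrays, namely both of R132C, of wild-type IDH1 and of wild-type IDH2 and R172K replicate 1 (adjusted p from 0.0544 to 0.0985), and with array weights (0.0623). Leaving out 1 array brought in Serpinb5 (-1.05 without wild-type IDH2 replicate 1, adjusted p = 0.0299), Serpinb8 (0.54 without R172K replicate 1, 0.0497) or Serpinb6a (-0.14 without R172K replicate 2, 0.0410). None of the 7 passed for the difference between the mutant effects, nor had an unadjusted p under 0.05, where limma called 0% of all genes. For Serpinb9 that difference was 0.45 (95% interval -0.34 to 1.25). The summed intensity of the 11 leukocyte markers was 823.0 to 1048 with R172K and 1210 to 1231 with wild-type IDH2, and 979.6 to 1077 with R132C and 1118 to 1174 with wild-type IDH1. The brightest of them, Cd14, was called lower with R172K (log2 9.77 to 9.02, adjusted p = 0.0283) and not with R132C (-0.26, adjusted p = 0.758), while 6 of the 11 had a positive change with R172K and 8 with R132C, none of them called. For the mean of both mutant effects Cd14 was called lower too (-0.51, adjusted p = 0.0217). Of 12 hepatoblast and epithelial markers, 3 were lower with R172K than with wild-type IDH2, namely Epcam (-0.94), Hnf4a (-0.66) and Krt18 (-0.26), and 4 were lower and 1 higher for the mean mutant effect. The part of these markers in the Serpinb9 change was not tested.

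Against vector cells on collagen, R172K gave 1 rise and 1 fall, where 4.27% of all genes were called (1.15% higher and 3.12% lower). Serpinb9 was 2.58-fold lower (log2 change -1.37 with SE 0.26, adjusted p = 0.0140), which held in 20 of 23 alternatives. It was lost without R172K replicate 1 (-1.19, adjusted p = 0.102), without vector collagen replicate 2 (-1.12, adjusted p = 0.136) and with array weights. Serpinb8 was 1.70-fold higher (0.77 with SE 0.19, adjusted p = 0.0450), which held in 6 of 23 alternatives. Leaving out R172K replicate 2, the higher of the pair, gave 0.48 (adjusted p = 0.0964), and leaving out any array but R172K replicate 1 ended the call. R132C against vector called none of the 7 by limma (2 with an unadjusted p under 0.05, and 0% of all genes), with Serpinb9 at -0.96 (95% interval -1.52 to -0.40, adjusted p = 0.302). Wild-type IDH1 and wild-type IDH2 against vector called none of the 7 by limma either, with none at an unadjusted p under 0.05, where 0% of all genes were called. Their changes of Serpinb9 were -0.29 (95% interval -0.85 to 0.28) and -0.24 (-0.80 to 0.32). The R172K arrays and the vector arrays each enter several of these comparisons.

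**Figure D4:**
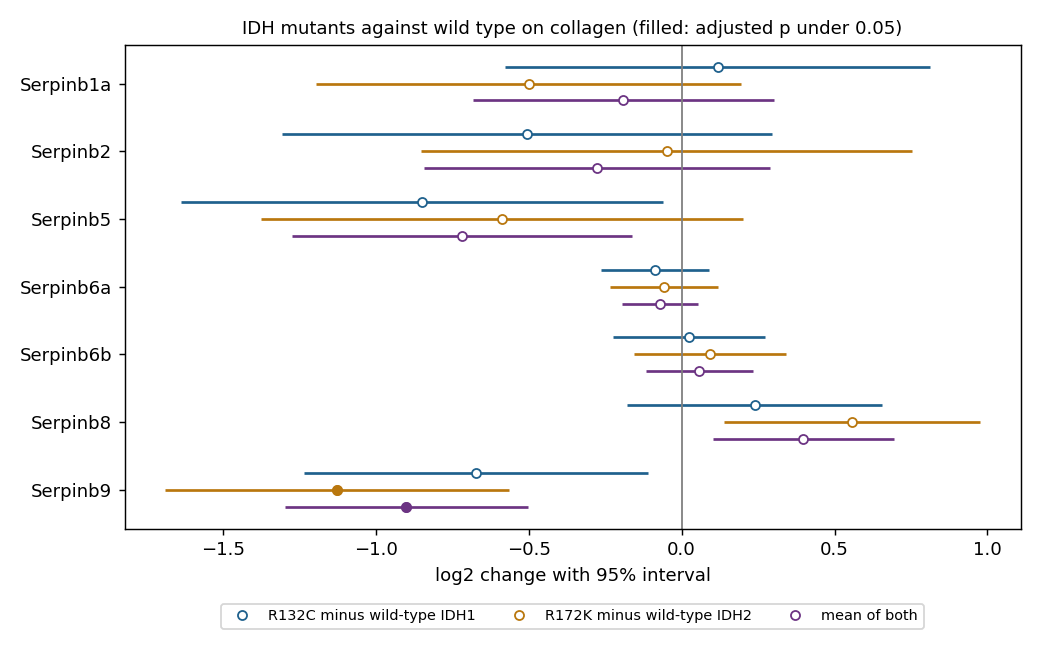
Log2 changes with 95% intervals from the limma fit (x axis) for the 7 Serpinb genes (y axis) on collagen, for R132C minus wild-type IDH1 (blue), R172K minus wild-type IDH2 (orange) and the mean of both (purple). Filled points have an adjusted p under 0.05 and are those of Serpinb9, at -1.13 for R172K and -0.90 for the mean.

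Of the 7 other Serpinb genes measured, 6 lay near background in all groups (Serpinb1b, Serpinb6c, Serpinb7, Serpinb9c, Serpinb9g and Serpinb11). Serpinb9b, a close relative of Serpinb9 and its neighbour on chromosome 13, was well expressed at a mean of log2 9.52. It changed by 0.083 on uncoated plates in vector cells (SE 0.17, adjusted p = 0.794) and rose by 0.57 in R132C cells (SE 0.17, adjusted p = 0.0267). A further list held serpins outside the Serpinb clade, most of them secreted, though not all inhibit proteases. Of 16 measured, 2 rose and 1 fell in vector cells, and 1 rose and 1 fell in R132C cells. This was below the share of all genes called in each (29.3% and 25.9%). Heparin cofactor II, Serpind1, fell in both (log2 -0.74 and -0.48), and the collagen chaperone Serpinh1 rose in R132C cells (0.54). Angiotensinogen, Agt, rose in vector cells by 0.63 from near background. The medians of this list were 0.0064 and 0.028, beside -0.020 and -0.028 over all genes.

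A fixed list of 20 genes of proteases and their partners was read as well. Not all of them are known targets of these 7 serpins. In vector cells 5 rose and 1 fell on uncoated plates, close to the 29.3% of all genes called there, and in R132C cells 3 rose, below the 25.9% of all genes. The lysosomal cathepsins Ctsd, Ctsb and Ctsz rose in vector cells by log2 0.80, 0.71 and 0.50 and in R132C cells by 0.77, 0.38 and 0.48. Urokinase, Plau, the main target of Serpinb2, fell in vector cells from log2 8.15 ± 0.14 to 7.27 ± 0.0046 (SD, n = 2 each), a change of -0.88 (SE 0.15, adjusted p = 0.000608). In R132C cells Plau changed by -0.072 (SE 0.15, adjusted p = 0.782), and on uncoated plates it was higher in R132C than in vector cells by 0.62 (adjusted p = 0.0476). The difference between its plate effects, 0.80 (SE 0.21), did not pass (adjusted p = 0.239). Granzyme B, Gzmb, the target of Serpinb9, lay near background in all 7 groups, as did Ctsg, Casp1, Casp4, Ctss and F2. Elastase, Elane, and proteinase 3, Prtn3, the targets of Serpinb1a, stood at means of log2 5.19 and 5.28 and passed in neither plate comparison. Furin, which Serpinb8 can inhibit, changed by 0.15 and 0.35 and did not pass (adjusted p = 0.494 and 0.0753). On collagen, cathepsin C, Ctsc, the lysosomal activator of granule proteases, was lower with R172K than with wild-type IDH2 by log2 -0.82 (SE 0.17, adjusted p = 0.0300), the only call of this list there.

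Some markers of other cells also differed between the plates, where 29.3% of all genes were called in vector cells and 25.9% in R132C cells. Ptprc, the pan-leukocyte CD45, was the only one of 11 leukocyte markers called, higher in both comparisons and from near background on collagen. Of the 11, 6 had a positive change in vector cells and 3 in R132C cells. In vector cells Ptprc stood at log2 4.47 ± 0.57 on collagen and 6.20 ± 0.35 on uncoated plates, and in R132C cells at 4.16 ± 0.12 and 5.35 ± 0.59 (SD, n = 2 each, adjusted p = 0.000465 and 0.00727 by limma). The summed intensity of the 11, most of it Cd14, was 1182 to 1338 on collagen and 1264.5 to 1443 on uncoated plates in vector cells, and 979.6 to 1077 and 969.7 to 1015 in R132C cells. Of 7 squamous epithelial markers, only the keratin Krt14 was called, lower by log2 -1.62 in vector and -1.11 in R132C cells (adjusted p = 0.00123 and 0.0155 by limma). Trp63 was near background in all 7 groups. The summed intensity of the 7 was 323.5 to 366.0 on collagen and 276.4 to 300.7 on uncoated plates in vector cells, and 315.3 to 355.0 and 267.0 to 288.5 in R132C cells. The summed intensity of 11 mesenchymal markers, nearly all of it Vim, was 17187 to 17288 on collagen and 14250 to 15306 on uncoated plates in vector cells, and 17523 to 17595 and 15183 to 15523 in R132C cells. Vim itself changed by log2 -0.23 and -0.20 and was not called (adjusted p = 0.0620 and 0.108), while the dim Col1a1 was called lower in vector cells (-0.53). A positive change was found in 6 of the 11 in vector cells and in 4 in R132C cells. None of 7 endothelial markers was called by limma in either plate comparison or had an unadjusted p under 0.05. Of 12 hepatoblast and epithelial markers, 3 rose and 2 fell in vector cells and 3 rose and 1 fell in R132C cells, beside 29.3% and 25.9% of all genes called. Sox9, a factor of bile duct cells, changed by 2.02 and 1.98, the adhesion gene Epcam by 1.83 and 1.08, and alpha-fetoprotein, Afp, by -1.39 and -0.83. On uncoated plates Epcam was lower in R132C than in vector cells (-1.49) and Afp higher (1.45), beside the lower Serpinb1a. The part of other cells, or of a change in cell state, in the serpin changes was not tested. In bulk cultures, fewer cells of a type and less RNA per cell cannot be told apart.

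Over the 7 group means, Serpinb2 and Serpinb5 varied together (Pearson r = 0.941) and Serpinb6b and Serpinb9 less closely (r = 0.838). Serpinb1a ran with Serpinb6b and Serpinb9 (r = 0.932 and 0.923) and against Serpinb2 and Serpinb5 (r = -0.900 and -0.897). The strongest value of any pair was Serpinb2 against Serpinb6b (r = -0.983), with Serpinb5 against Serpinb6b at -0.916. Serpinb6a, of small span, ran with Serpinb2 at r = 0.770. The groups share a plate difference that sets most of these values, so they describe the pattern and are not tested. Among 1477 genes whose group means spanned at least log2 1, those most like Serpinb1a were Sel1l3, Enpp5 and Amot (r = 0.999, 0.998 and 0.997). Most like Serpinb9 were the pyridoxal kinase gene Pdxk, the antigen-loading chaperone tapasin, Tapbp, and Cnp (r = 0.999, 0.997 and 0.997). Tapbp ran from log2 8.20 with R172K to 10.82 in uncoated vector cells. Most like Serpinb2 were Tmeff1, Gcnt3 and Cttnbp2nl, each at r = 0.997. Serpinb5 was nearest to the metalloprotease gene Adam8, the chemokine Ccl9 and Atg9b (r = 0.996, 0.991 and 0.989), and Serpinb6b to C1s1, Chpt1 and Cst9 (r = 0.998, 0.997 and 0.997). C1s1 and Cst9 lay near background in all 5 collagen groups. Over the 14 single arrays the likeness was lower, at r = 0.805 for Atg9b, 0.815 for C1s1 and 0.844 for Gcnt3, and 0.926 or more for the other 12. Serpinb6a and Serpinb8 varied by less than log2 1 and were not matched.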

How the data were processed

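Each of 14 hepatoblast cultures was measured on 1 Affymetrix mouse array. The authors deposited RMA values, an intensity per probe set, per the submitters' processing notes, with no version or settings given in the sources used here. They were linear (5.84 to 26770), so log2 was taken. Of 22690 probe sets, 20380 carried 1 gene symbol and were no control, and each of 12393 genes took its brightest. A model with 1 mean per group used every array (limma 3.58.1, lmFit and eBayes with trend, R 4.3.3), and 12 comparisons were drawn, called at a Benjamini-Hochberg adjusted p under 0.05. Intervals are 95% and unadjusted. The fit was tested on simulated data. The series text calls the replicates separate cultures. The labels do not say what a replicate number marks, so numbers were not treated as pairs in the main fit. Same-numbered arrays did deviate together in part, with correlations over 0.1 in 13 of 21 pairs of groups (median 0.156, from -0.041 to 0.487). Any variation shared by a number thus stays in the spread of the main fit, and a fit with the number as a block is among the alternatives. The members and lists were chosen with earlier results of these data known. The text names all members, up to 3 called or 2 bright genes per list, further markers where the make-up of the cultures is described, and the 3 genes most like a member. Promoters are from RefSeq, matched by symbol. Another background correction was not run, since it needs scanner values.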

Additional observations from a re-analysis of the deposited data

How the results depend on the processing

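Of 1932 changes of a member under an alternative, 1862 kept their side of the threshold, 50 lost a call, 20 gained a call and none of these reversed with a call. Another 51 turned sign with no call on either side. The 9 calls of the plate comparisons held in all 23 alternatives, except Serpinb2 in vector cells (22 of 23). The alternative with probe sets tested singly kept the chosen probe set of each member, so it does not check a call against the member's other probe sets. Those of Serpinb5, 1424623_at and 1438856_x_at, did not pass in vector cells (adjusted p = 0.0555 and 0.153 by limma). With the replicate number as a block, 2 of the 7 genes in place of 1 passed for R132C against vector on uncoated plates, Serpinb2 being added (-0.75, adjusted p = 0.0317), and fitting only the arrays compared left 0. For R172K against wild-type IDH2, 0 passed in place of 1 with a mean over probe sets, with probe sets tested singly, cyclic loess, centred arrays, no intensity trend or array weights. For R172K against vector, 2 became 1 with probe sets tested singly, a mean over probe sets or only the arrays compared, and 0 with array weights. The mean mutant effect went from 1 to 0 with array weights, which gave the R172K arrays the lowest weight (0.331). The block also brought in Serpinb5 for the plate effect in R132C cells (5 in place of 4, adjusted p = 0.0161) and changed no other call of a member. Leaving out arrays gave 4 to 5 in each plate comparison, 0 to 1 for their difference, 0 to 2 for R132C against vector on uncoated plates, 0 to 1 for R172K against wild-type IDH2, 0 to 2 for the mean mutant effect and 0 to 1 for R172K against vector. The cause of these shifts was not tested.

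Over all genes, the counts behind the printed percentages moved too. R132C against vector on uncoated plates went from 296 to 140 with only the arrays compared and 505 with the block, R172K against wild-type IDH2 from 215 to 41, 480 and, with array weights, 9, and R172K against vector from 529 to 45, 904 and 40. The mean mutant effect went from 448 to 792 with the block and 209 with array weights. The plate effect difference went from 31 to 11 without dim genes, 55 with array weights and 54 with the block. R132C against wild-type IDH1 went from 6 to 0 by cyclic loess and by both other probe set choices, 3 with centred arrays, 39 with array weights and 49 with the block. R132C against vector went from 0 to 10 with array weights and 33 with the block. The plate effects went from 3628 and 3215 of 12393 genes to 5848 and 5244 of 22626 probe sets when these were tested singly, shares of 25.8% and 23.2%. Leaving out 1 array gave 2293 to 4251 and 1660 to 3916 for the plate effects, 71 to 386 for R132C against vector on uncoated plates, 14 to 2332 for R172K against wild-type IDH2, 70 to 2596 for R172K against vector, 109 to 1803 for the mean mutant effect, 19 to 79 for the plate effect difference, 0 to 9 for R132C against wild-type IDH1 and 0 to 14 for R132C against vector. The difference between the mutant effects, 0 otherwise, was 85 without R172K replicate 2, 2 without R172K replicate 1 and 1 without wild-type IDH1 replicate 1. Levels near background limit Serpinb1a on collagen and Serpinb5 on uncoated plates. The lone array of a group with 1 left out was assumed to vary like the others.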

Other observations

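Replicate 2 was higher than replicate 1 for Serpinb2 in all 7 groups, by log2 0.19 to 1.13, and Serpinb6b was lower in replicate 2 in all 7, by differences from -0.019 to -0.31. For Serpinb9 the same difference was positive in 6 groups, for Serpinb5 and Serpinb6a in 5, and for Serpinb1a and Serpinb8 in 4. The labels do not say what a replicate number marks.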
